A study of Mus musculus with 5 samples.

Results

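Interferon regulatory factors (IRFs) are transcription factors that share a DNA-binding domain and recognise repeats of the bases GAAA, which form the interferon-stimulated response element (ISRE) of many antiviral genes. IRF3 and IRF7 are phosphorylated by TBK1 when STING, the adaptor of cytosolic DNA sensing, is active, and they switch on the interferon beta gene. Interferon then acts through its receptor and JAK kinases to form ISGF3, a complex that contains STAT2 and IRF9. IRF1 activates and IRF2 mostly represses through overlapping sites, IRF5 acts in Toll-like receptor signalling, and IRF8 is a factor of myeloid and lymphoid cells.

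The family is described here through 7 listed genes, Irf1, Irf2, Irf3, Irf5, Irf7, Irf8 and Irf9. Members were the probe sets whose annotation names 1 of these genes and no other, which gave 7 of the 41345 probe sets in the table, and they cover 6 of the 22180 genes named there. Irf8 had 2 probe sets (17506279 and 17548703), and the others had 1 each, 17249593 for Irf1, 17501050 for Irf2, 17477655 for Irf3, 17497813 for Irf7 and 17300591 for Irf9. The 1 probe set that names Irf5 also names the neighbouring gene Tnpo3, so Irf5 has no value here. All 6 measured genes passed the filter on low signal, which kept 12311 genes. Irf8 passed only through its value on the Compound C array.

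The RNA came from mouse embryonic fibroblasts, labelled as primary, that lack STING and were given back the R284S variant, a gain-of-function form. The 5 groups, with 1 Affymetrix array each, received vehicle, Tofacitinib, GSK 690693, Doxorubicin or Compound C for 9 hours. Every group carries the STING deletion and the R284S variant, and no array of cells without the variant was analysed here. Neither a dose nor the promoter that drives the variant is stated in the sources used here. Compound C (dorsomorphin) inhibits AMPK, the energy-sensing kinase named in the study's title, and BMP type I receptors. GSK 690693 inhibits AKT kinases and also AMPK, doxorubicin, an anthracycline, poisons topoisomerase II, and tofacitinib inhibits JAK kinases. The question put to each compound was how the transcripts of cells that carry the variant differed from vehicle.

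All values are log2 signal, and all differences are log2 signal on one array minus that on another. With 1 array per group no difference has a replicate check, an error or a test. Genes were counted as higher or lower at 1.5-fold, and the share of all tested genes past the same fold is given beside the counts of members and beside most counts of gene lists. The percentages beside gene lists are those before centring or quantile normalization. The 4 comparisons with vehicle share the vehicle array. The standard deviation of the difference over tested genes was 0.258 between the closest arrays, GSK 690693 and tofacitinib, and between 0.295 and 0.584 between vehicle and each compound. All 14 fibroblast markers passed the filter, and their summed log2 signal lay between 14.65 and 14.79, a sum that the brightest markers dominate. Past 1.5-fold among them were Lum (1.8), Fap (1.59) and Col1a1 (−0.64, not after centring) with doxorubicin and Pdgfrb (−1.21), Fap (1.11) and Lum (0.65) with Compound C. Fap read 4.91 under vehicle, below the filter, and passed through its highest value, 6.5 under doxorubicin. None of the measured dendritic, B cell and T cell markers passed it, with 6 of 7, 4 of 5 and 4 of 5 listed markers measured. Of the other markers, 2 of 5 endothelial and 4 of 5 epithelial ones passed, with summed log2 signals from 7.14 to 7.52 and from 7.94 to 8.25, and with Compound C Kdr (−0.66) and Krt19 (0.61) were past 1.5-fold. The part of these markers in the members' differences was not tested. In such bulk RNA, fewer expressing cells and less RNA per cell cannot be told apart.

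The promoters of the members were searched for letters of motifs that interferon-activated and inflammatory factors bind, where a match is a description and not a binding site. RefSeq promoter sequences of the assembly GRCm38.p6, from 250 bases before to 50 after each annotated start, were found for all 7 genes, with 10 start sites in all. The ISRE core was searched as GAAA repeated after a gap of 2 bases, the gamma-activated site (GAS) bound by STAT dimers as TTC and GAA with 3 bases between them and the NF-kB site as GGGA and CC with 4 bases between them, on both strands, and no match overlapped a match to another of these motifs in the stretches shown. Over 32851 promoters of the same length, 3.44% held the ISRE core, 8.3% the GAS and 20.7% the NF-kB letters. Among the members, only Irf2 held the ISRE core, and Irf1, Irf2 and Irf8 held a GAS. The stretches before the most upstream start of Irf1 and Irf2, the 2 members with the most similar pattern over the arrays, and of Irf9, the member with the largest single difference, are printed 5′ to 3′ on the plus strand with ISRE core and GAS matches in capitals. They are chr11:53769764-53770013 for Irf1, chr8:46739495-46739744 for Irf2 and chr14:55603735-55603984 for Irf9.
Irf1: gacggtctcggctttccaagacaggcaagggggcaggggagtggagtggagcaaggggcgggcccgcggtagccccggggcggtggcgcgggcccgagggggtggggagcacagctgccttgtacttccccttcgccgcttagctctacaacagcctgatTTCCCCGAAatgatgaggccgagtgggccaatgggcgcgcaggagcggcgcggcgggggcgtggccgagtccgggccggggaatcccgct
Irf2: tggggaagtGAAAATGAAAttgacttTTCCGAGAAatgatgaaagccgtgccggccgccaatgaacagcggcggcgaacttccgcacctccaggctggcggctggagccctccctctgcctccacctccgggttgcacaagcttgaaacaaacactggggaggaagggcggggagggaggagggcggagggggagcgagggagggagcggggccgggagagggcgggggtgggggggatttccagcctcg
Irf9: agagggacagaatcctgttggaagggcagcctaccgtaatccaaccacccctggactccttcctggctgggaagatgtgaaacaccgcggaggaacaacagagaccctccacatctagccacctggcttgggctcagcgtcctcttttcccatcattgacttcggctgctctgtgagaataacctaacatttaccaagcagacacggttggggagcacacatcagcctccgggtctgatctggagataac
The GAS of Irf1 begins 90 bases before the start. In Irf2 the ISRE core begins 241 bases before the start, where the noncoding gene Gm16675 overlaps the stretch, and the GAS begins 224 bases before it. No letters of these 3 motifs lie in either promoter of Irf9 or in that of Irf7, which holds a TATA box (TATAAA, found in 13.6% of promoters) beginning 29 bases before its start.

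**Figure D1:**
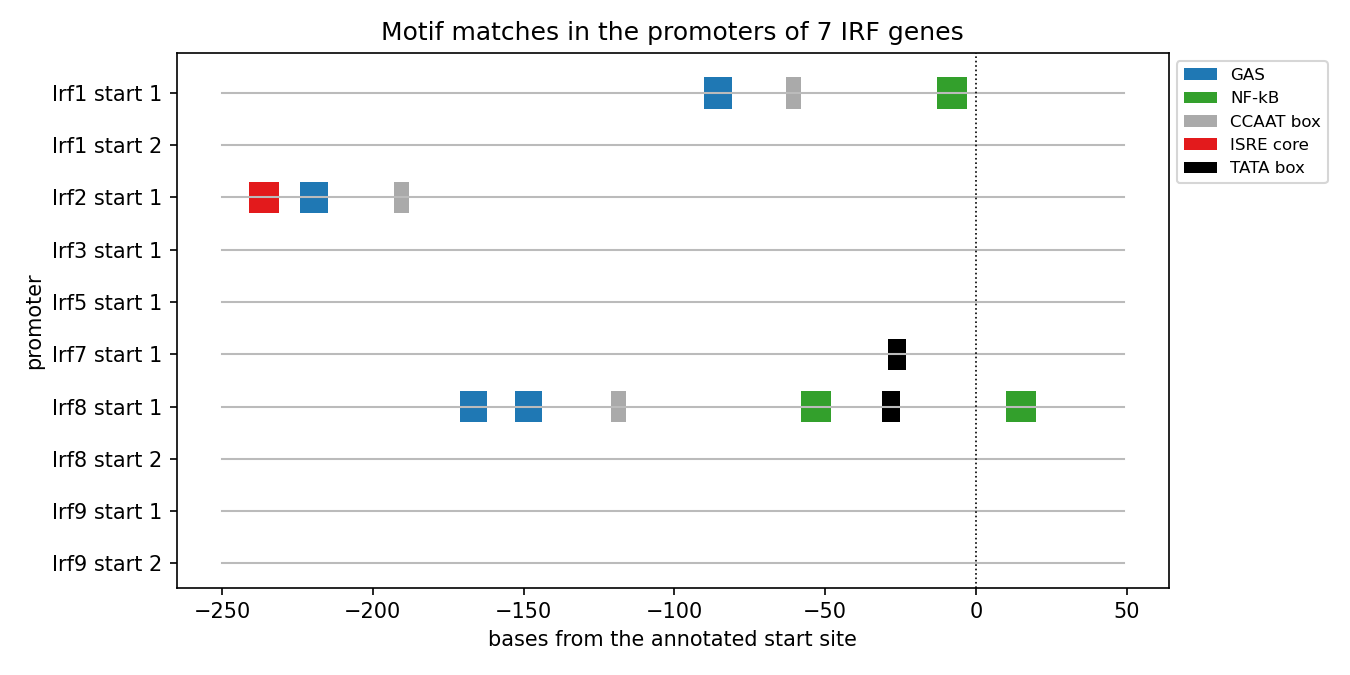
Motif matches in 10 annotated promoters of 7 IRF genes, each a grey line from 250 bases before to 50 bases after the start site (dotted line); the horizontal axis is the distance from the start in bases, and coloured blocks mark the ISRE core, GAS, NF-kB, CCAAT and TATA letters on either strand. The ISRE core appears only in Irf2, and the promoters of Irf3, Irf5 and Irf9 hold none of the 5 motifs.

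Irf3 encodes the factor that STING and TBK1 activate directly, and its protein is present before any stimulus. Its log2 signal was 6.92 under vehicle, 6.42 under Compound C, 6.65 under doxorubicin, 7.13 under GSK 690693 and 7.49 under tofacitinib. The tofacitinib array was highest and the Compound C array lowest. Against vehicle, Irf3 differed by −0.50 under Compound C, −0.27 under doxorubicin, 0.21 under GSK 690693 and 0.57 under tofacitinib, all short of 1.5-fold. The 0.57 under tofacitinib was reached or passed by 387 tested genes, 3.14% of all. The 2 kinase inhibitors with AMPK among their targets lay on opposite sides of vehicle, with Irf3 1.64-fold lower on the Compound C array than on the GSK 690693 array (−0.71), a distance that shrank below 1.5-fold after median centring of the arrays.

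Irf7 encodes the factor that is itself induced by interferon and amplifies interferon production. It read 9.88 under vehicle, 9.88 under Compound C, 10.38 under doxorubicin, 9.68 under GSK 690693 and 9.39 under tofacitinib. Doxorubicin gave the highest value and tofacitinib the lowest, and the Compound C and vehicle arrays gave the same one. The differences of 0.50 under doxorubicin (1.41-fold higher) and −0.49 under tofacitinib (1.40-fold lower) did not reach 1.5-fold. With tofacitinib, 408 tested genes (3.31%) read as low as Irf7 or lower against vehicle. Between the doxorubicin and tofacitinib arrays Irf7 differed by 0.99, or 1.99-fold, which 114 tested genes (0.926%) reached.

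Irf9 encodes the DNA-binding subunit of ISGF3. Its log2 signal was 8.98 under vehicle, 8.26 under Compound C, 8.07 under doxorubicin, 8.66 under GSK 690693 and 7.37 under tofacitinib, so vehicle was highest and tofacitinib lowest. With tofacitinib it was 3.05-fold lower than with vehicle (−1.61), the largest difference of any member in any comparison with vehicle. Only 15 of the 12311 tested genes, Irf9 among them, read that low or lower, and Mx2, Oas2, Usp18 and Xaf1 of the lists used here were 4 of these. Irf9 was 1.88-fold lower with doxorubicin (−0.91), 1.65-fold lower with Compound C (−0.72) and 1.25-fold lower with GSK 690693 (−0.32). Set against the median of the 4 remaining arrays instead of vehicle, the Compound C and doxorubicin differences no longer reached 1.5-fold, at −0.105 and −0.39, tofacitinib stood at −1.09, and GSK 690693 changed sign, to 0.495. The tofacitinib array lay 2.45-fold below the GSK 690693 array (a GSK 690693 minus tofacitinib difference of 1.29, reached by 11 tested genes).

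Irf1 encodes an activator induced by interferon gamma and NF-kB signals. It read 6.35 under vehicle, 6.19 under Compound C, 5.30 under doxorubicin, 6.30 under GSK 690693 and 6.28 under tofacitinib. Only the doxorubicin array stood apart, at 2.07-fold below vehicle (−1.05), and the other compounds lay within 0.16 of vehicle. The doxorubicin value lay below the filter level of that array, 5.39, so the size of this difference rests on a dim reading.

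Irf2 encodes the factor that competes with IRF1 for its sites. Its log2 signal was 8.26 under vehicle, 8.27 under Compound C, 7.09 under doxorubicin, 7.93 under GSK 690693 and 7.81 under tofacitinib. Doxorubicin was again lowest, 2.25-fold below vehicle (−1.17), while Compound C equalled vehicle to within 0.01. The smaller differences were −0.33 under GSK 690693 and −0.45 under tofacitinib. After subtraction of each gene's mean over the 5 arrays, Irf1 and Irf2 were the closest pair of members, with a root mean square distance of 0.196, and Irf3 and Irf9 the farthest, at 0.767. Among tested genes, 5.87% read as low as Irf1 or lower with doxorubicin and 4.52% as low as Irf2 or lower.

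Irf8 marks myeloid cells more than fibroblasts, and it was dim. The brighter probe set read 5.18 under vehicle, 5.43 under Compound C, 4.92 under doxorubicin, 5.17 under GSK 690693 and 4.89 under tofacitinib, and the other lay between 3.30 and 3.76 on all arrays. Both probe sets were highest with Compound C and lowest with tofacitinib, with differences from vehicle of at most 0.29 in size. Whether the gene was above background is not known. Of 12 macrophage markers 4 passed the filter, their summed log2 signal lay between 8.43 and 8.58, and the leukocyte gene Ptprc and the macrophage gene Adgre1 read at most 3.86 and 3.65. Cd14, among the 4, read between 6.15 and 6.47, and Csf1r was higher with GSK 690693 than with vehicle (0.59), but not past 1.5-fold after centring. Csf1r passed the filter only through its GSK 690693 value (5.52), so it was counted only because it was high there. Irf4, a lymphoid member outside the list, read between 3.63 and 3.93, below the filter.

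**Figure D2:**
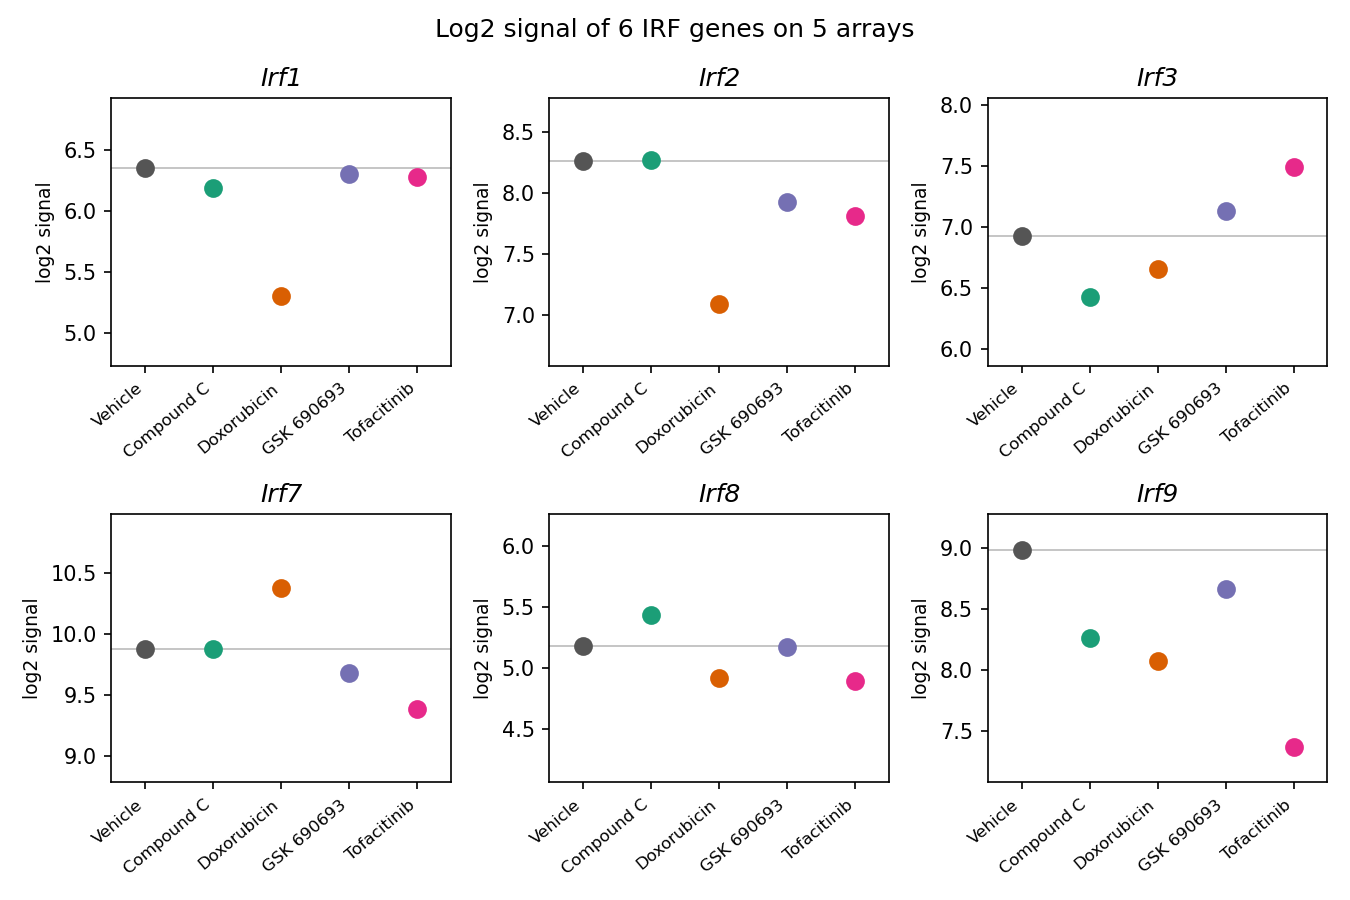
Log2 signal of 6 IRF genes (vertical axis, each panel spanning the same number of log2 units) on the 5 arrays (horizontal axis); each point is 1 array and the grey line is the vehicle value. Irf1 and Irf2 are lowest with doxorubicin, Irf9 and Irf7 lowest with tofacitinib, and Irf3 highest with tofacitinib.

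By compound, doxorubicin had the most members past 1.5-fold from vehicle. Of the 6 genes, Irf1, Irf2 and Irf9 lay past 1.5-fold below vehicle and 0 above it, where 14.2% of all tested genes were that much lower and 11.5% higher, and the members' median was −0.59 against 0.05 for all tested genes. With Compound C only Irf9 was past 1.5-fold, where 9.99% of all tested genes were lower and 6.07% higher, and the members' median of −0.08 lay near the −0.02 of all genes. With GSK 690693 no member was past 1.5-fold, where 3.21% of all tested genes were lower and 2.4% higher, and the median was −0.125 against 0.04. There 5 of 6 lay below vehicle, Irf8 (−0.01) and Irf1 (−0.05) only slightly, and 5 of 6 also did with doxorubicin and with tofacitinib. The share of all tested genes below vehicle is not given here. With tofacitinib Irf9 alone was lower and 0 were higher, where 2.0% of all tested genes were lower and 2.66% higher, and the median was −0.37 against 0.09.

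The tofacitinib count moved with median centring and not with quantile normalization, which left it at 1 with 40.3% of the genes past 1.5-fold higher. Subtracting each array's own median shifted the median of all tested genes with tofacitinib by −0.17, to −0.08, and lowered the share of higher genes among those past 1.5-fold from 57.1% to 10.0%. On that scale 3 members were at least 1.5-fold lower with tofacitinib, since Irf2 (−0.62) and Irf7 (−0.66) joined Irf9 (−1.78). Of all tested genes, 600 were that much lower there, against 246 before centring, and 5.42% against 4.66% were past 1.5-fold in either direction. The share of higher genes went from 42.8% to 24.0% with GSK 690693 and from 37.8% to 47.9% with Compound C, without a change in those counts of members. At 2-fold, Irf1 and Irf2 remained for doxorubicin and Irf9 for tofacitinib, and none for Compound C. Past 2-fold in either direction were 7.79% of all tested genes with doxorubicin, 0.463% with tofacitinib and 3.83% with Compound C.

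**Figure D3:**
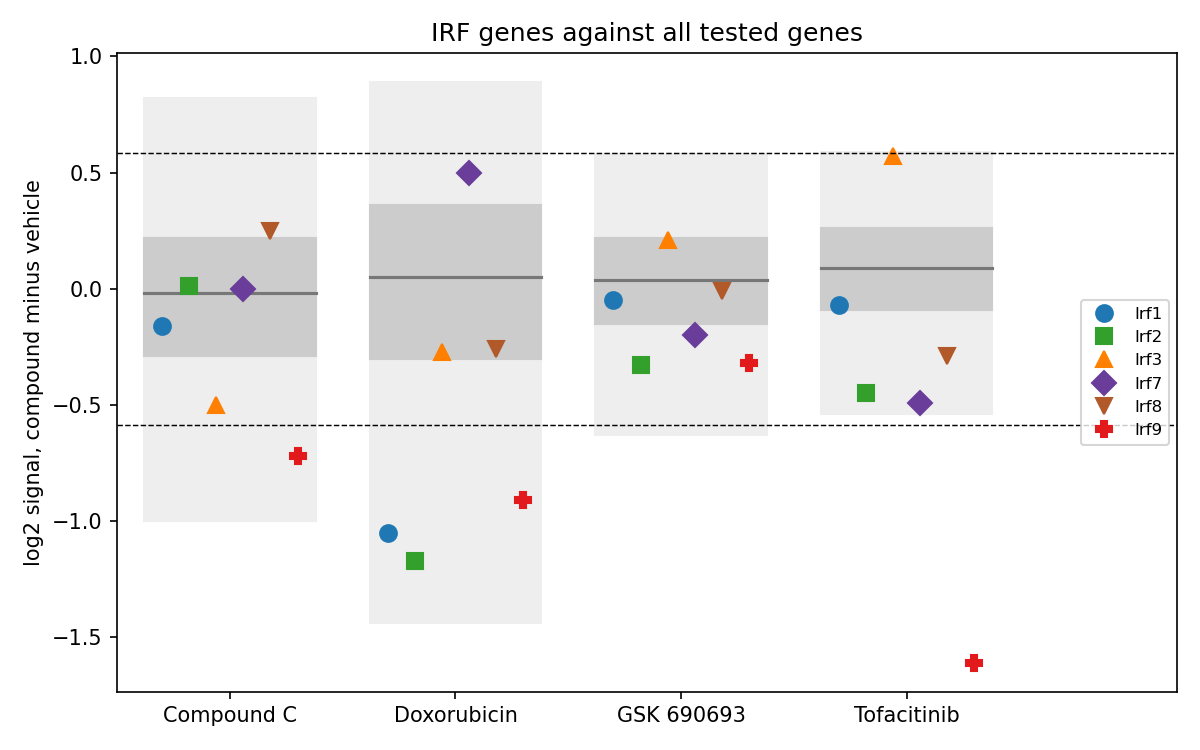
Log2 difference from vehicle (vertical axis) of 6 IRF genes, by compound (horizontal axis). Coloured symbols are single genes, the dark and light grey boxes hold the central 50% and 95% of the 12311 tested genes with their median as a line, and dashed lines mark 1.5-fold; Irf9 with tofacitinib, at −1.61, lies below the light box.

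Between compounds, 6 pairs of arrays were compared. Doxorubicin and tofacitinib differed by 1.5-fold in 5 of 6 members, where 22.5% of all tested genes did, with Irf7 (0.99) and Irf9 (0.70) higher with doxorubicin and Irf1 (−0.98), Irf3 (−0.84) and Irf2 (−0.72) lower. Doxorubicin and GSK 690693 differed in 4, against 27.8% of tested genes, with Irf7 higher by 0.70 and Irf1 (−1.0), Irf2 (−0.84) and Irf9 (−0.59) lower with doxorubicin. Centring left 4 of the 5 and 3 of the 4. Shares of all tested genes between compounds after centring are not given here. Compound C exceeded doxorubicin in Irf2 (1.18) and Irf1 (0.89), where 30.2% of tested genes were past 1.5-fold. Compound C and tofacitinib differed in Irf3 (−1.07, 2.10-fold lower with Compound C) and in Irf9 (0.89), against 20.8% of tested genes, and after centring in 5 members, 4 of them higher with Compound C. Compound C and GSK 690693 differed in Irf3 alone (16.4% of tested genes), and in none after centring, and GSK 690693 and tofacitinib in Irf9 alone (3.46%). On those last arrays the differences of the other members, GSK 690693 minus tofacitinib, were −0.36 (Irf3), 0.29 (Irf7), 0.28 (Irf8), 0.12 (Irf2) and 0.02 (Irf1).

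For the 5 members whose values spanned 1.5-fold or more over the arrays, which leaves out Irf8, the genes nearest in pattern, by root mean square distance of the mean-subtracted log2 values over the 5 arrays, differed from member to member. For Irf1 they were Smad5, a transducer of BMP signals (0.015), the zinc finger gene Zfp266 (0.0293) and Morc3 (0.0294), which read lower than vehicle with doxorubicin by differences of −1.01, −1.06 and −1.05. N4bp1 (0.0581), the actin regulator Wasl (0.0706) and Zfp800 (0.0709) were nearest to Irf2. For Irf3 they were the spindle checkpoint gene Mad2l1 (0.0583), Tmem131l (0.0583) and the mitotic kinase gene Cdk1 (0.0601), which differed from vehicle with tofacitinib by 0.61, 0.50 and 0.45. Sfn (0.0415), Adamtsl4 (0.0535) and the receptor gene Flt4 (0.0627) were nearest to Irf7. Irf9 had no neighbour as close: Gm10865 (0.213), the ubiquitin ligase gene Rnf213 (0.229) and Slfn2 (0.262) were nearest, and they differed from vehicle with tofacitinib by −1.47, −1.45 and −0.89. These distances rest on 5 single arrays, and the nearest genes were picked out of 12311.

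The IRF2-binding proteins are corepressors that were first described as partners of IRF2, and their genes were lowest on the same array as Irf2. Irf2bpl read 8.46 under vehicle, 8.57 under Compound C, 6.39 under doxorubicin, 8.11 under GSK 690693 and 8.38 under tofacitinib. The brighter probe set of Irf2bp2 read 9.16, 9.76, 7.15, 8.92 and 8.90 in the same order, and Irf2bp1 read 6.63, 6.0, 5.27, 6.92 and 6.88. Doxorubicin gave the lowest value of all 3 genes, at −2.07, −2.01 and −1.36 from vehicle, against −1.17 for Irf2 itself. The Irf2bp1 value under doxorubicin lay below the filter level of that array, 5.39. The other probe set of Irf2bp2 agreed in sign but not in size, at −0.56 under doxorubicin. On the doxorubicin array 6 of 9 tested partner genes lay past 1.5-fold below vehicle and 0 above it (1 above after centring or quantile normalization), where 14.2% of all tested genes were lower and 11.5% higher, their median was −0.98, and the coactivator genes Crebbp (−1.15) and Ep300 (−0.72) and the NF-kB subunit gene Rela (−0.98) made up the other lower ones. With Compound C, the brighter probe set of Irf2bp2 was higher than with vehicle (0.60), but not past 1.5-fold after quantile normalization. The other probe set of Irf2bp2 was lower there, at −0.19. Irf2bp1 was lower with Compound C (−0.63), but not past 1.5-fold after centring. With GSK 690693 no partner gene was past 1.5-fold.

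The second subunit of ISGF3 on the array, Stat2, was lowest where Irf9 was. Stat2 read 10.04 under vehicle, 9.99 under Compound C, 9.67 under doxorubicin, 9.73 under GSK 690693 and 8.82 under tofacitinib, which is a difference of −1.22 on the tofacitinib array. It is the one partner gene past 1.5-fold there, where 2.0% of all tested genes were lower. After centring it was 1 of 3, where 600 of the 12311 tested genes were lower, against 246 before. Unlike Irf9, Stat2 lay within 0.05 of vehicle with Compound C. Of 9 tested genes of the interferon receptors and their JAK and STAT proteins, Stat2 and Stat3 (−0.65) were lower with tofacitinib, and none was past 1.5-fold with the other compounds.

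**Figure D4:**
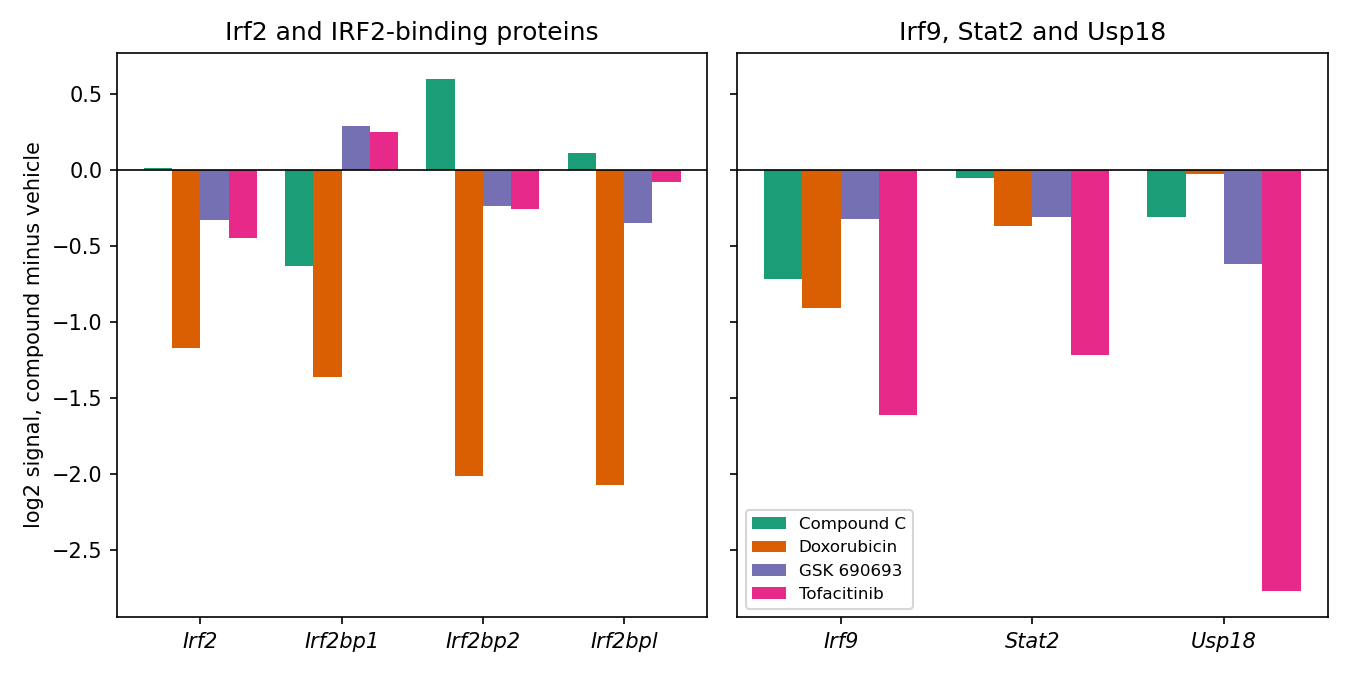
Log2 difference from vehicle (vertical axis) of Irf2 with 3 genes of IRF2-binding proteins (left) and of Irf9 with its partner Stat2 and the ISGF3 target and feedback gene Usp18 (right); each bar is 1 compound array minus the vehicle array. The doxorubicin bars are lowest in the left panel and the tofacitinib bars in the right one.

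Genes that act through or on the members were read from lists, and their medians stand against those of all tested genes given above, which lay between −0.02 (Compound C) and 0.09 (tofacitinib). Of 18 tested ISGF3 target genes, 15 were at least 1.5-fold lower and 0 higher with tofacitinib, where Irf9 was lowest, with a median of −0.87 and against 2.0% of all tested genes lower and 2.66% higher. Usp18, a protease that also dampens receptor signalling, read 10.87 under vehicle and 8.10 under tofacitinib (−2.77), and Xaf1 (−1.69) and Oas2 (−1.67) followed. With doxorubicin, where Irf9 was 1.88-fold lower, 1 of the 18 was lower (Rtp4, −1.24) and 1 higher (Ifi27, 1.04), against 14.2% and 11.5% of all tested genes, and the median was −0.125. With GSK 690693, where Irf9 was 1.25-fold lower, 10 were lower and 0 higher, with Cmpk2 (−1.73), Ddx60 (−1.5) and Mx2 (−1.37) lowest and a median of −0.61, against 3.21% of all tested genes lower. With Compound C, 6 were lower, among them Ddx60 (−1.62), Cmpk2 (−1.57) and Parp14 (−1.18), against 9.99% of all tested genes lower, and the median was −0.315.

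Of 11 early genes that IRF3 can induce directly, 7 were lower with Compound C and 7 with GSK 690693 (9.99% and 3.21% of all tested genes), with medians of −0.75 and −0.73, although Irf3 itself lay on opposite sides of vehicle with these compounds. Oasl1 (−1.66), Rsad2 (−1.39) and Ccl4 (−1.27) were lowest with Compound C, and Rsad2 (−1.73), Oasl1 (−1.58) and Ccl4 (−1.42) with GSK 690693. With doxorubicin 2 were lower, Ccl4 (−1.04) and Oasl1 (−0.86), and with tofacitinib 1, Zbp1 (−1.43), against 14.2% and 2.0% of all tested genes. After centring 4 were lower with tofacitinib, and after quantile normalization 2. On these scales 600 and 298 of the 12311 tested genes were lower with tofacitinib, against 246 before. None of the 11 was 1.5-fold higher with any compound.

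Of 12 genes that IRF1 can induce, 3 were higher and 0 lower with doxorubicin, where Irf1 was 2.07-fold lower and 11.5% of all tested genes were higher, and 2 were higher after quantile normalization. The 3 were the immunoproteasome genes Psmb10 (0.83) and Psmb8 (0.61) and the nitric oxide synthase gene Nos2 (0.62), and the list median was 0.25. The immune checkpoint ligand gene Cd274 and the GTPase gene Gbp3 were lower with GSK 690693 (−1.14 and −1.0) and with tofacitinib (−1.27 and −1.18), on arrays where Irf1 lay within 0.07 of vehicle, and after centring 4 of the 12 were lower with tofacitinib (3 after quantile normalization). These 2 genes stand against 3.21% and 2.0% of all tested genes lower with the respective compounds. The counts after centring and quantile normalization stand against 600 and 298 of the 12311 tested genes lower with tofacitinib. With Compound C, Tap1 was lower (−0.60), but not after centring. Of 6 cytokine genes that IRF5 can induce, only Il6 passed the filter, at 9.45 under vehicle, 9.13 under Compound C, 9.41 under doxorubicin, 8.43 under GSK 690693 and 8.52 under tofacitinib.

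**Figure D5:**
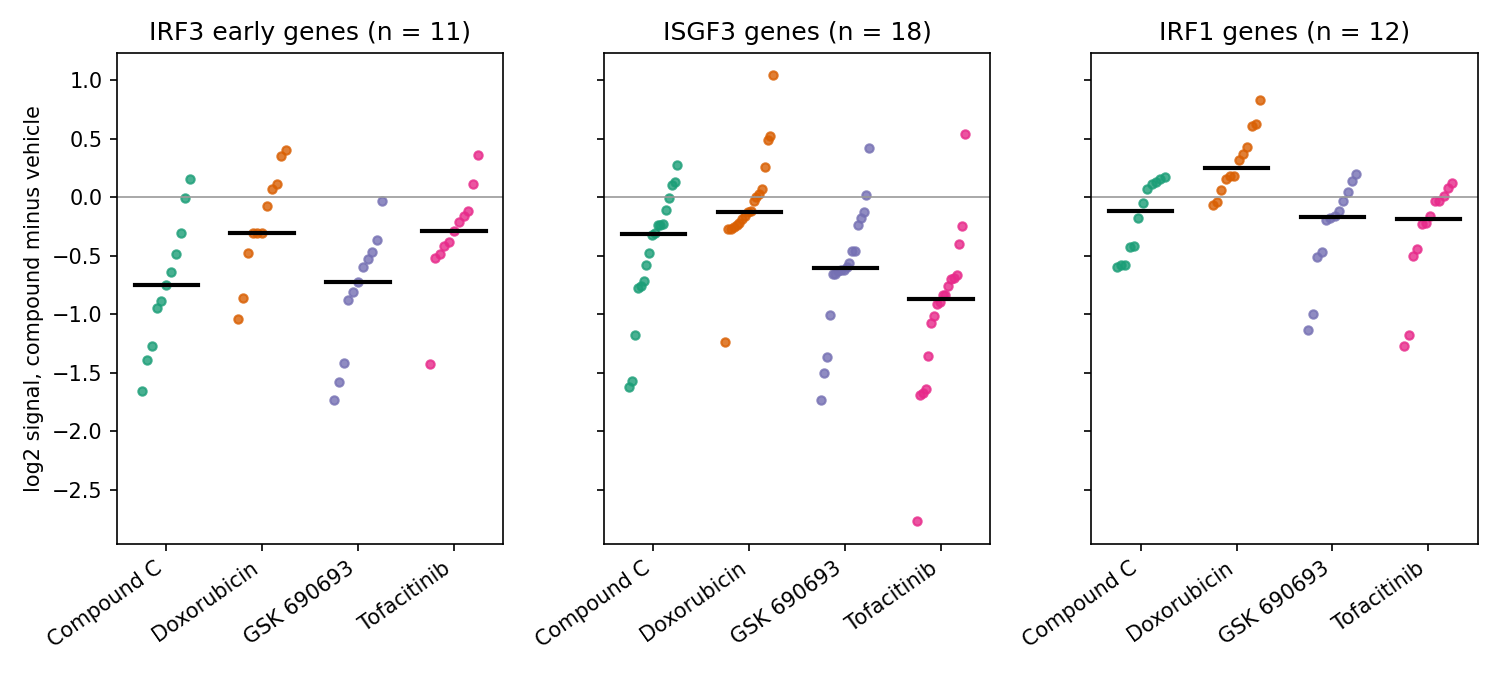
Log2 difference from vehicle (vertical axis) of tested genes that IRF3 (11 genes), ISGF3 (18 genes) and IRF1 (12 genes) can induce, by compound (horizontal axis). Points are single genes in rising order, and black bars are list medians; the lowest median is that of ISGF3 genes with tofacitinib, at −0.87.

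Upstream of the members, the 16 tested sensors, adaptors and kinases went both ways. With doxorubicin 4 were lower, led by the kinase gene Tbk1 (8.74 under vehicle and 7.19 under doxorubicin), the DNA sensor gene Cgas (−1.46) and Traf6 (−1.41), and 2 were higher, against 14.2% and 11.5% of all tested genes, and quantile normalization gave 5 lower and 1 higher. The share of higher genes was thus near that of all genes. Cgas read 4.95 under doxorubicin, below the filter level of that array, 5.39. With Compound C 4 were lower and 2 higher, led by the RNA sensor gene Tlr3 (−1.84), the transporter gene Slc15a4 (1.05) and Traf6 (0.85), against 9.99% and 6.07% of all tested genes. With GSK 690693, Tlr3 (−0.90) and the RNA sensor gene Ifih1 (−0.85) were lower, and with tofacitinib Tlr3 (−1.34) and the RIG-I gene Ddx58 (−0.73), against 3.21% and 2.0% of all tested genes lower. Of 10 tested genes that restrain IRF proteins or the receptor signal, 3 were higher and 0 lower with Compound C, namely Foxo3 (1.37), Atf4 (1.09) and the translational repressor gene Eif4ebp1 (0.85), where 6.07% of all tested genes were higher. With doxorubicin 4 were lower, led by Tnfaip3 (−1.72), Atf4 (−1.26) and Foxo3 (−0.93), and 1 was higher, or 2 after centring and 0 after quantile normalization, where 14.2% of all tested genes were lower and 11.5% higher. Usp18 (−0.62) was lower with GSK 690693, and Usp18 and the brighter of 2 Socs3 probe sets (−1.08) with tofacitinib, against 3.21% and 2.0% of all tested genes lower. After centring, 3 of the 10 were lower with tofacitinib and 4 higher with Compound C. On that scale 600 of the 12311 tested genes were lower with tofacitinib and 945 higher with Compound C. Of 19 interferon genes 18 were measured and 7 passed the filter, and Ifnb1, the target gene of IRF3 and IRF7, was not among them. All 7 lay below vehicle with tofacitinib, GSK 690693 and doxorubicin, with medians of −0.38, −0.26 and −0.23, and the median with Compound C was 0.0. Ifna7 passed the filter only through its vehicle value (5.49), and the highest value of Ifna14 (5.39) was shared by vehicle and Compound C. Neither could thus lie above vehicle. The share of all tested genes below vehicle is not given here. Ifna4 (−0.70) and Ifnl2 (−0.59) were past 1.5-fold lower with tofacitinib, and Ifnl2 with doxorubicin (−0.61), the last not after centring or quantile normalization. The interferon alpha genes are near-identical copies, so their probe sets may share signal.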

How the data were processed

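The deposited values are log2 signal, 1 for each probe set on each array, which the authors made with Affymetrix Expression Console 1.3.1.187 per the submitters' processing notes. How probes were summarised, background removed and arrays scaled is not stated in the sources used here, and the log base was read from the values, which ran from 1.05 to 13.18. Genes were named from the platform annotation, and one with several symbols was given no name. The brightest of a gene's probe sets by its mean over the 5 arrays stood for the gene. A gene was tested if the highest of its values reached that array's median over the 23521 probe sets with 1 symbol, between 5.37 and 5.44. Differences were computed with pandas 2.3.3 and counted at 1.5-fold, a log2 difference of 0.585. With 1 array per group there is no test, and the number of arrays limits the precision. The members and the gene lists were chosen with earlier results of these data known. Named list genes are up to 3 per list and comparison, the largest past 1.5-fold, and named neighbours are the 3 genes nearest to a member in pattern. Scaling, reference array, probe set choice, filter and threshold were varied. The counting step was tested on simulated data.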

Additional observations from a re-analysis of the deposited data

How the results depend on the processing

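The direction of every member past 1.5-fold held under the 5 alternatives of scaling, reference, probe set choice and filter that gave a difference, and no such difference changed sign. Irf1, Irf2 and Irf9 have 1 probe set each, so the mean of probe sets and the removal of the filter could not change their differences. Removing the filter could move no member's value, and the mean of probe sets could move only that of Irf8. Of 120 alternative values of single members, which include these fixed ones, 115 moved by less than 0.258. The 5 that moved by more all had the median of the 4 remaining arrays in place of vehicle. That reference raised the count of members past 1.5-fold with tofacitinib from 1 to 2, with Irf9 at −1.09 and Irf3 higher at 0.705, and median centring raised it to 3. After centring, 5.42% of all tested genes were past 1.5-fold in either direction with tofacitinib. With the median of the remaining arrays as reference, the share was 4.26% with tofacitinib, 15.5% with Compound C and 22.3% with doxorubicin. With that reference the count for Compound C stayed 1 but was Irf3 (−0.605) and not Irf9 (−0.105), and the 3 for doxorubicin were Irf1 (−0.99), Irf2 (−1.005) and Irf7, higher at 0.60, and not Irf9 (−0.39). Among values under 1.5-fold, Irf9 with GSK 690693 changed sign there, from −0.32 to 0.495. At 2-fold the count with Compound C was 0 in place of 1, where 3.83% of all tested genes were past 2-fold. Alternatives for pairs of compounds were chosen after the data were seen, and the share of all tested genes under them is not given here. Centring changed the count from 1 to 0 for Compound C and GSK 690693 and from 2 to 5 for Compound C and tofacitinib, from 4 to 3 for doxorubicin and GSK 690693 and from 5 to 4 for doxorubicin and tofacitinib, and quantile normalization also gave 4 for the last. The 75th percentile filter left 3 members, and gave 1, 0, 1 and 3 in place of 2, 1, 2 and 5 for Compound C against doxorubicin, GSK 690693 and tofacitinib and for doxorubicin against tofacitinib. At 2-fold the counts were 1 for Compound C and doxorubicin, 0 for Compound C and GSK 690693, 1 for Compound C and tofacitinib, 1 for doxorubicin and GSK 690693 and 0 for doxorubicin and tofacitinib. The mean of probe sets took Irf8 below the filter. No paired analysis was possible because each group has 1 array. No detection call was used, so background may hold down differences of dim genes such as Irf8.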
